A study of Mus musculus with 24 samples.

Results

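A set of 10 genes of the fibroblast growth factor (FGF) family was followed through the dental mesenchyme of the mouse molar, from Fgf1 to Fgf20. The members were given as a list of names (Fgf1, Fgf2, Fgf3, Fgf7, Fgf8, Fgf9, Fgf10, Fgf13, Fgf18 and Fgf20), and each symbol matched 1 identifier, so that they make up 10 of the 56748 genes in the count table. The RNA-seq series holds 24 libraries in 8 groups of 3, all from ICR embryos whose first mandibular molar germs were taken at the cap stage (E13) or the bell stage (E15). Cap-W and Bell-W are undivided, which the series' design text describes as the whole tooth germ, while the labels name mesenchymal cells as the source of every library. Cap-L, Cap-B, Bell-L and Bell-B are the lingual and buccal parts, parted with a fine needle before the mesenchyme was freed with dispase II. Cap-L+2D and Cap-B+2D are those cap stage parts kept in vitro for 2 days. No mutant, transgene or drug enters these groups. Material of several embryos went into the study as a whole, the sources used here do not say which embryos made up which library, and p-values therefore measure only the spread between these libraries, which may be technical.

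FGFs are secreted signals that bind receptor tyrosine kinases (Fgfr1 to Fgfr4) together with heparan sulfate, and their target cells answer with ETS transcription factors and with inhibitors such as the Sprouty proteins. In the developing tooth they carry messages in both directions between epithelium and mesenchyme. Fgf3, Fgf7 and Fgf10 are known mainly as mesenchymal ligands that act on the epithelial receptor isoform of Fgfr2, while Fgf8, Fgf9 and Fgf20 are known from the dental epithelium, the latter pair from the enamel knot, the epithelial signalling centre of the cap stage. Fgf13 belongs to the FGF homologous factors, which stay inside the cell, bind voltage-gated sodium channels and microtubules, and do not activate the receptors in the usual way. The label of a secreted ligand therefore suits 9 of the 10 genes.

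Between 20581720 and 39266497 read pairs were counted per library, and a count of 3, taken as the floor of detection, corresponded to 0.0764 to 0.146 CPM (counts scaled to a library of 1000000). Levels are given as CPM after TMM normalization of all 24 libraries, in the order of libraries 1, 2 and 3, and floors and intervals cover counting error only. All 10 dental mesenchyme markers, such as Pax9, Msx1 and Lhx6, were above the floor in every group. Markers of other cell types were also detected and moved with the groups. The summed level of 12 epithelial markers averaged 479 normalized CPM in Cap-W, 538 in Cap-L, 389.9 in Cap-B, 844 in Bell-L, 612 in Bell-B, 450.1 in Cap-L+2D and 94.7 in Cap-B+2D. In Bell-W it ranged from 535 to 2231, the highest value being that of library 3. This library stood apart, since its counts differed from those of its fellow libraries by a chi-square per degree of freedom of 61.8 and 55.0 over genes, where the pairs of the 6 divided groups lay between 1.32 and 9.84. Library 1 of Cap-W stood apart as well (161 and 124), with 5.39% of its counts on the ribosomal RNA gene Rn18s-rs5 against at most 1.43% in the other 23 libraries. The 9 skeletal muscle markers summed to 21.3 in Cap-L, 239.8 in Cap-B, 121 in Bell-L, 944 in Bell-B, 321 in Cap-L+2D and 4005 in Cap-B+2D. The 5 erythroid markers went from 1669 in Cap-L and 1822 in Cap-B to 18.9 and 24.7 after culture. The 6 bone markers summed to 972 in Cap-L, 454 in Cap-B, 2328 in Cap-L+2D and 572 in Cap-B+2D. Endothelial markers were lower in Cap-B+2D (164) than in Cap-L+2D (409.5), Schwann and glial markers higher in Cap-B (64.1) than in Cap-L (27.1), and macrophage markers higher in Bell-L (149) than in Cap-L (43.2). Neuronal markers reached 142 in library 3 of Bell-W, against 20.0 in its lowest library. The part of these cell types in the FGF values below was not tested, and in bulk RNA fewer cells of a type and less RNA per cell cannot be told apart.

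**Figure D1:**
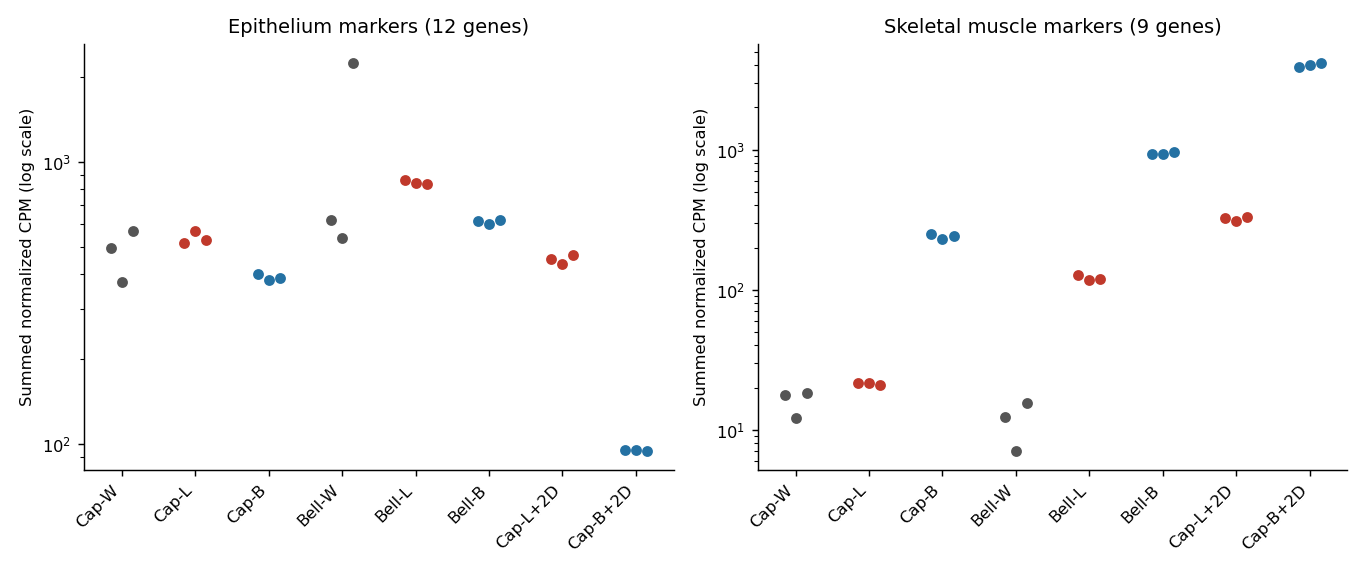
Summed normalized CPM (log scale) of the 12 epithelial markers (left) and the 9 skeletal muscle markers (right) in each library (points, grey for undivided, red for lingual and blue for buccal mesenchyme), in the 8 groups. Library 3 of Bell-W reached 2231 for epithelium, Cap-B+2D was lowest there, and every buccal group lay above its lingual counterpart for muscle.

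The genes lie on 10 chromosomes (GRCm39, first and last exon base as counted). Fgf3 (ENSMUSG00000031074, chromosome 7, 144391820 to 144398173) is the most compact with Fgf8 (ENSMUSG00000025219, chromosome 19, 45725237 to 45731354), and Fgf13 (ENSMUSG00000031137, chromosome X, 58107505 to 58613431) spans the longest stretch. Further members are Fgf2 (ENSMUSG00000037225, chromosome 3, 37402495 to 37464257), Fgf7 (ENSMUSG00000027208, chromosome 2, 125876578 to 125933105), Fgf9 (ENSMUSG00000021974, chromosome 14, 58308004 to 58350177), Fgf10 (ENSMUSG00000021732, chromosome 13, 118806327 to 118928651), Fgf18 (ENSMUSG00000057967, chromosome 11, 33067430 to 33097400) and Fgf20 (ENSMUSG00000031603, chromosome 8, 40732207 to 40761372). Strand was not used in the counting, so that reads from overlapping exons could not be assigned. Other genes overlapped 13.2% of the exon bases of Fgf2 (Nudt6 on the opposite strand and Gm43439), 12% of those of Fgf20 (Micu3) and 2.67% of those of Fgf10 (Gm16263). The other 7 genes had no such overlap.

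The difference between the parts changed with both stage and culture in Fgf1, Fgf3, Fgf7 and Fgf18 (by the interaction tests given with their values), and the 250 bases before the GENCODE canonical start of the last 3 are therefore shown, 5′ to 3′ on the gene's strand and read from GRCm39. The window of Fgf3 lies at chr7:144391349-144391598, plus strand, that of Fgf7 at chr2:125876328-125876577, plus strand and that of Fgf18 at chr11:33097829-33098078, minus strand. In Fgf3 and Fgf18 this start lies upstream of the first exon of the counted annotation. Capitals mark a match to CTTTGA, or TCAAAG on the other strand, a short form of the TCF/LEF motif. Transcription factors of the Wnt pathway read this motif, and its other forms were not searched.
Fgf3: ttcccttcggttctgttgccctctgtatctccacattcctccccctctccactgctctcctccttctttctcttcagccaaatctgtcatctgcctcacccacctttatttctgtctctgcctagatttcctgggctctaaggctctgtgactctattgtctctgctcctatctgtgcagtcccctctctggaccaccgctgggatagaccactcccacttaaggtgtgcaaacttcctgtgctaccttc
Fgf7: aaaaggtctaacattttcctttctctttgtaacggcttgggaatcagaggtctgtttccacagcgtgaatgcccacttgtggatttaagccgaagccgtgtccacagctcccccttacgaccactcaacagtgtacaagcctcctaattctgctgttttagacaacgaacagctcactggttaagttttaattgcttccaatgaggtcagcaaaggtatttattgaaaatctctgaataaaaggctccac
Fgf18: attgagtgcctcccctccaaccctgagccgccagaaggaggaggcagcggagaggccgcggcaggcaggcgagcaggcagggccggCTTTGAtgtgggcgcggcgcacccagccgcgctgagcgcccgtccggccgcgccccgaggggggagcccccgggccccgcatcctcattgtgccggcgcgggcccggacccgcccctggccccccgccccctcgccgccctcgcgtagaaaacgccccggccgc
The window of Fgf18 held 1 match, whose first base is 164 bases before the start, and had a GC content of 78.4%. Those of Fgf3 (52%) and Fgf7 (43.6%) held no match to CTTTGA or TCAAAG, and the median GC content over 21770 windows was 53.2%. These letters occurred in 14.12% of all windows. None of the 3 windows held a TATA box (TATAAA, or TTTATA on the other strand, in 11.92% of windows) or the E-box CAGCTG (11.86%). A match describes the letters only.

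Compared per kilobase of exon, the scale on which genes can be set beside each other, Fgf18 held the largest share of the summed level of the 10 genes in 6 of the 8 groups. Its level per kb was highest in Cap-B, at 32.3 ± 0.979 (SD, n = 3) normalized CPM per kb, which made 60.2% of the sum, and lowest in Bell-W, at 7.14 ± 1.59 (SD, n = 3) and 16.2%. The ranking of genes rests on the counted exon lengths, 1187 bases for Fgf18 against 6782 for Fgf2 and 4601 for Fgf10. Not scaled by length, Fgf2 was above Fgf18 even in Cap-B (means of 41.4 and 38.3 normalized CPM). Fgf13, the intracellular member, led in Cap-W with 10.7 ± 2.77 (SD, n = 3), or 31.7%. Fgf3 led in Bell-W with 13.5 ± 2.36 (SD, n = 3), or 30.7%, against 0.824% in Cap-W. Fgf10, Fgf2 and Fgf13 kept shares between 6.42% and 31.7% in all groups. Fgf1 and Fgf9 stayed under 4% and Fgf20 reached 6.21% in Cap-L. The sum over the 10 genes was 33.2 ± 3.99 (SD, n = 3) normalized CPM per kb in Cap-W, 35.7 ± 0.307 (SD, n = 3) in Cap-L and 53.6 ± 1.74 (SD, n = 3) in Cap-B. It was 46.4 ± 1.06 (SD, n = 3) in Bell-L, 53.7 ± 0.439 (SD, n = 3) in Bell-B and 57 ± 1.12 (SD, n = 3) in Cap-B+2D.

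**Figure D2:**
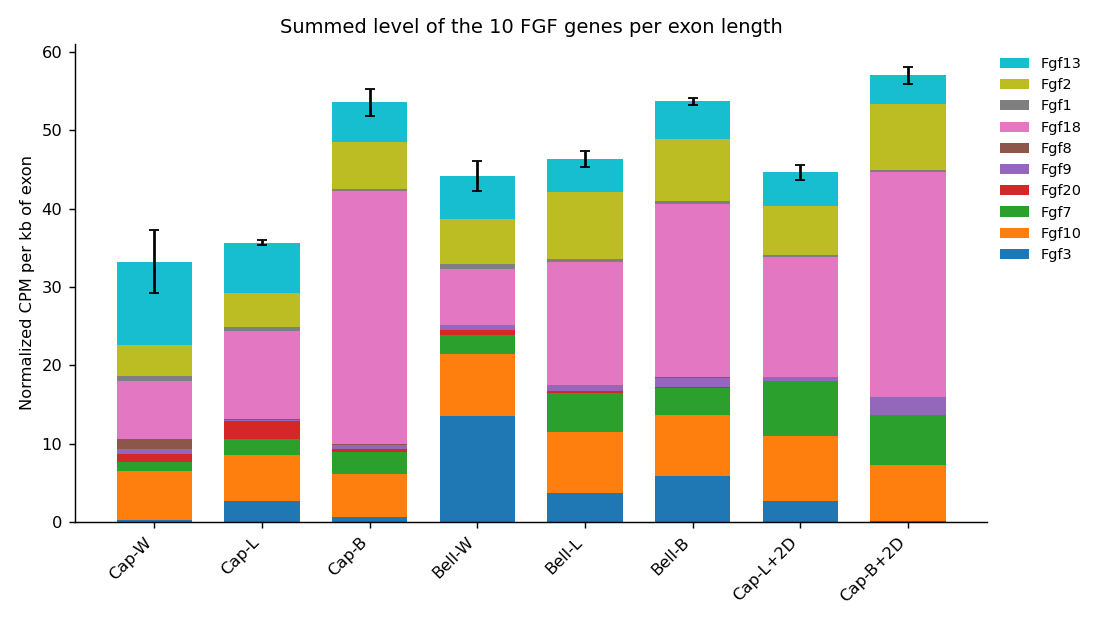
Stacked bars of the mean normalized CPM per kb of exon of the 10 genes in each group, with the SD (n = 3) of their sum as error bar. Fgf18 makes up 60.2% of the bar of Cap-B and 50.4% of that of Cap-B+2D, and Fgf3 makes up 30.7% of that of Bell-W.

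Whether the parts of the germ differ, and whether that difference holds at the bell stage and in culture, was tested by fitting edgeR's quasi-likelihood model to all genes, with p-values adjusted by Benjamini and Hochberg. To be called, a gene needed an adjusted p below 0.05 together with a log2 fold change beyond 0.5 in either direction. All adjusted p-values come from such fits. Fold changes of parts are buccal over lingual. For a single gene, permuting the labels of 3 and 3 libraries exactly and two-sided could give no p below 0.10. At the cap stage, Fgf9, Fgf18 and Fgf2 were higher in Cap-B, Fgf20, Fgf3 and Fgf1 were higher in Cap-L, and Fgf7, Fgf10 and Fgf13 were not called. The calls thus numbered 6 of the 9 members tested, 3 in each direction, where 17.5% of all 20653 genes tested were called (10.4% higher and 7.1% lower in Cap-B). The median log2 fold change was -0.10 against -0.01 over all genes. At the bell stage, 3 of 8 members tested were called (background 12.9% of 21181, 6% higher and 6.88% lower), namely Fgf3 and Fgf9 higher in Bell-B and Fgf7 higher in Bell-L, with a median of 0.15 against 0.00. After culture, 3 of 8 were called (background 25.1% of 21195, 12.5% higher and 12.5% lower), namely Fgf9 and Fgf18 higher in Cap-B+2D and Fgf3 higher in Cap-L+2D, with a median of 0.06 against 0.00. Fgf8 had too few counts for these tests, and so did Fgf20 at the bell stage and after culture. All 6 members called at the cap stage stayed called with each library left out in turn.

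**Figure D3:**
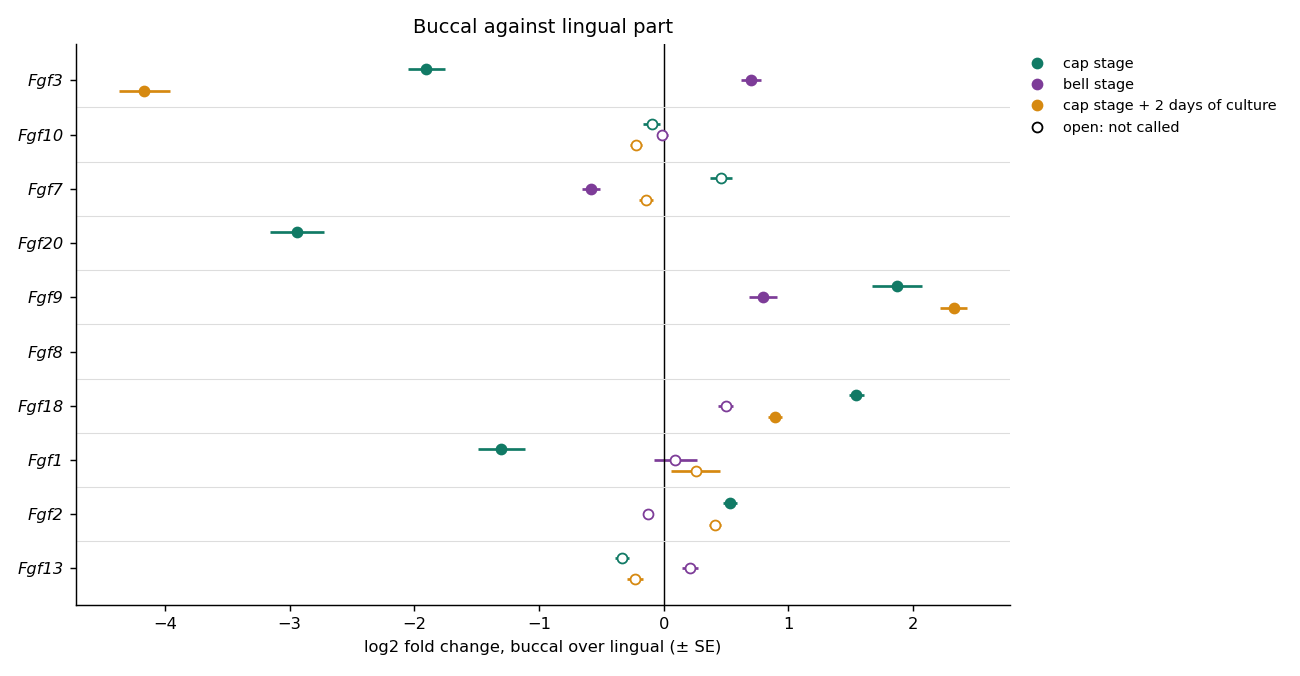
Log2 fold change, buccal over lingual, of each member at the cap stage, at the bell stage and after 2 days of culture. Points are edgeR estimates, bars are standard errors, filled points were called and members not tested have no point. Fgf3 lies at -1.91, 0.70 and -4.17, while Fgf9 and Fgf18 lie on the buccal side each time.

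The change of the side difference was tested as an interaction, for which an adjusted p below 0.05 sufficed, whatever the fold. With stage it was called in 8 of 9 members tested, all but Fgf10, where 32.5% of 21931 genes were called (14.5% in the positive and 18% in the negative direction), and the median interaction was 0.08 against -0.02 over all genes. With culture it was called in 4 of 9 (Fgf1, Fgf3, Fgf7 and Fgf18), near the background of 35.5% of 22098 genes (16% in the positive and 19.5% in the negative direction), with a median of -0.13 against -0.01. Both interactions rest on the same Cap-L and Cap-B libraries.

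Over time within one side, members were compared between the stages and between fresh and cultured parts, and these comparisons share their Cap-L or Cap-B libraries. From Cap-L to Bell-L, Fgf9, Fgf7 and Fgf2 rose and Fgf20, Fgf13 and Fgf1 fell, 6 of 9 tested against 20% of 21425 genes (14.2% higher and 5.78% lower), with a median of 0.49 against 0.00 over all genes. From Cap-L to Cap-L+2D Fgf9, Fgf7 and Fgf2 rose and Fgf20, Fgf1 and Fgf13 fell, 6 of 9 against 35.4% of all genes (19.6% higher and 15.9% lower), with a median of 0.46 against -0.03. On the buccal side, 5 of 8 were called from Cap-B to Bell-B (Fgf3, Fgf9, Fgf1 and Fgf10 rose, Fgf18 fell, background 18.7% of 21992, 12% higher and 6.73% lower), with a median of 0.43 against 0.00. Of the marker lists, all 5 erythroid markers fell in culture on both sides, and macrophage markers rose in 5 of 5 in Cap-L+2D and 4 of 5 in Cap-B+2D. From Cap-B to Cap-B+2D, 3 of 8 were called (Fgf9 and Fgf7 rose, Fgf3 fell), near the background of 34.5% (17.9% higher and 16.6% lower), with a median of 0.29 against -0.02. Cultured parts differed from the bell stage parts in Fgf20, Fgf1 and Fgf9 on the lingual side, all lower in Cap-L+2D (3 of 9, background 31.2%, 14.4% higher and 16.8% lower, median -0.44 against -0.01). On the buccal side they differed in Fgf3 and Fgf1, lower in Cap-B+2D, and in Fgf7 and Fgf9, higher there (4 of 8, background 31.8%, 15.5% higher and 16.3% lower, median -0.02 against -0.01).

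In the undivided mesenchyme, 4 of 10 members were called between the stages (background 14.5% of 20940 genes, 10.3% higher and 4.21% lower), with a median of 0.04 against -0.03 over all genes. Fgf3 and Fgf7 rose and Fgf8 and Fgf13 fell. Without library 1 of Cap-W and library 3 of Bell-W, which stood apart (an alternative added after the values were seen), 7 were called, since Fgf2 (0.76), Fgf10 (0.68) and Fgf9 (-1.09) joined the 4.

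**Figure D4:**
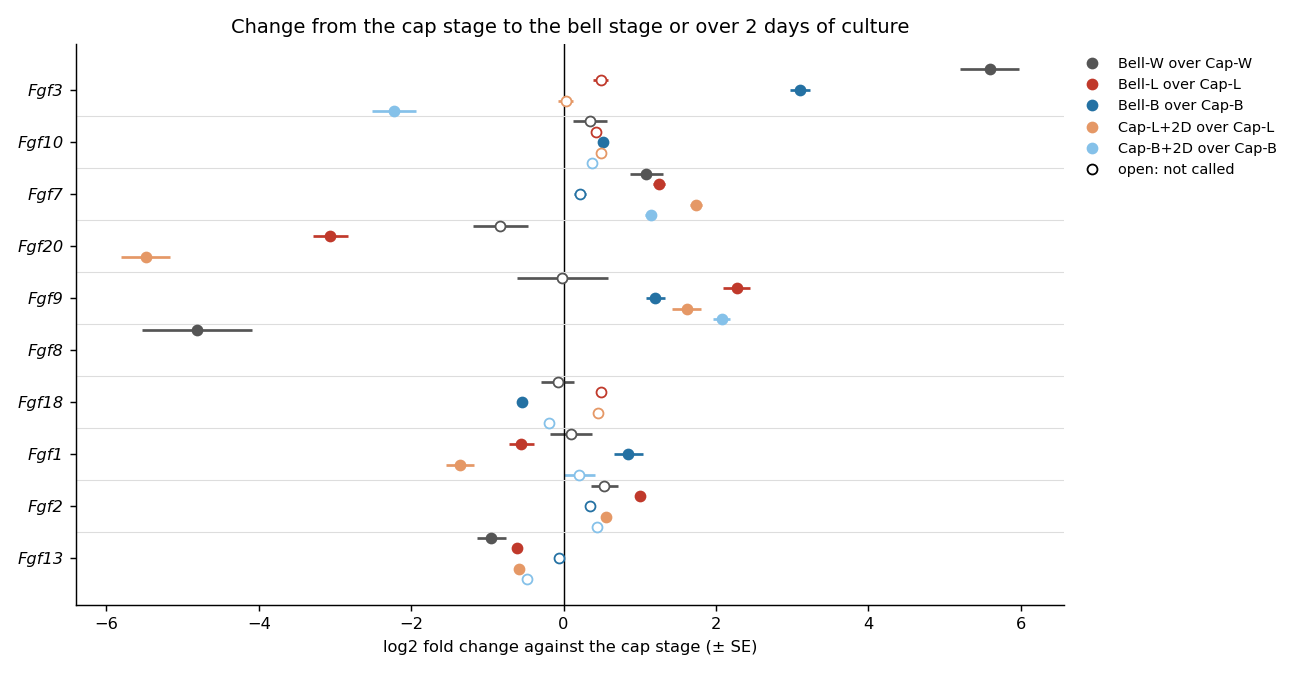
Log2 fold change of each member from the cap stage to the bell stage in the undivided, lingual and buccal mesenchyme, and over 2 days of culture in both parts. Points are edgeR estimates with standard errors, filled points were called. Fgf3 ranges from -2.23 (Cap-B+2D over Cap-B) to 5.59 (Bell-W over Cap-W), and Fgf20 from -5.49 to -0.83.

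Fgf3, a ligand of the dental papilla and the enamel knot, was the only member called in both directions between the parts. Its level in the 3 libraries was 6.97, 5.93 and 5.33 normalized CPM in Cap-L and 1.53, 1.76 and 1.48 in Cap-B (log2 fold change -1.91, standard error 0.15, adjusted p = 6.56e-09). All libraries of Cap-L lay above those of Cap-B. At the bell stage it was 9.05, 8.35 and 8.04 in Bell-L and 15.4, 13.1 and 12.8 in Bell-B (log2 fold change 0.70, standard error 0.081, adjusted p = 1.39e-09), and now the buccal libraries were all higher. The interaction with stage was 2.60, standard error 0.17, adjusted p = 3.57e-13. In culture the lingual level was 6.28, 6 and 6.19 in Cap-L+2D and the buccal level 0.549, 0.279 and 0.158 in Cap-B+2D (log2 fold change -4.17, standard error 0.20, adjusted p = 3.68e-15), where the buccal libraries held 20, 8 and 5 counts. The interaction with culture was -2.26, standard error 0.31, adjusted p = 6.62e-07, which widened the lingual excess. The lingual level did not pass the limit from Cap-L to Bell-L (log2 fold change 0.49, standard error 0.10, adjusted p = 0.000188) or to Cap-L+2D (0.03, adjusted p = 0.826). Without library 1 of Cap-L (0.58) or library 3 of Bell-L (0.53), the first of these was called. The buccal level rose to the bell stage by 3.10 and fell in culture by 2.23 on the log2 scale (adjusted p = 2.51e-19 and 3.17e-08), both against the same Cap-B libraries. Library 1 of Cap-B+2D, the highest of its group, weighed on the values of culture. Without it the log2 fold change was -4.81 against Cap-L+2D, -2.87 against Cap-B and -5.97 against Bell-B (with it -5.33), and the interaction with culture was -2.91, all still called.

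In the undivided mesenchyme Fgf3 had the largest change among the members. It was 0.222, 0.954 and 0.626 normalized CPM in Cap-W, from 4, 29 and 14 counts, and 25.4, 33.1 and 36 in Bell-W (log2 fold change 5.59, standard error 0.39, adjusted p = 0.000289). The fold change stayed between 5.25 and 6.13 and called with each library left out. Ordered by mean, the groups ran Bell-W, Bell-B, Bell-L, Cap-L+2D, Cap-L, Cap-B, Cap-W and Cap-B+2D, and the ranges of neighbours overlapped only between Cap-L+2D and Cap-L and between Cap-W and Cap-B+2D.

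Fgf10, which drives branching and budding of epithelia and is known from the dental papilla, was called between the parts in none of the 3 pairs. It was 27.7, 25.4 and 28.5 normalized CPM in Cap-L and 25.8, 26.5 and 22.6 in Cap-B, 35.6, 35.9 and 36.8 in Bell-L and 36, 37.1 and 34.6 in Bell-B. Neither pair was called (log2 fold change -0.10, standard error 0.07, adjusted p = 0.288 at the cap stage, and -0.01 with adjusted p = 0.899 at the bell stage). The cultured parts had 36.5, 40.1 and 37.5 in Cap-L+2D and 32.9, 32.6 and 32.8 in Cap-B+2D, a difference of -0.22 (adjusted p = 0.000543) that was under the limit on the fold. Against the cap stage, the rise was 0.51 in Bell-B (adjusted p = 1.59e-09), which was called but not without library 3 of Cap-B (0.44) or library 2 of Bell-B (0.49). The differences of 0.42 in Bell-L and 0.50 in Cap-L+2D stayed under the limit, the latter only just. Undivided, it was 36, 19.8 and 29.8 in Cap-W and 35.6, 43.5 and 30.2 in Bell-W, ranges that overlapped. Ordered by mean, the groups ran Cap-L+2D, Bell-W, Bell-L, Bell-B, Cap-B+2D, Cap-W, Cap-L and Cap-B, and the ranges of neighbours overlapped except between Bell-B and Cap-B+2D. Cap-B+2D lay wholly above Cap-L and Cap-B, and its difference of 0.37 from Cap-B (adjusted p = 4.07e-07) was under the limit on the fold.

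Fgf7, the keratinocyte growth factor made by mesenchyme, rose with time on the lingual side. It was 6.83, 6.62 and 7.13 normalized CPM in Cap-L, 14.5, 17.5 and 16.7 in Bell-L and 23.1, 23.7 and 21.8 in Cap-L+2D, with no overlap between these groups. The rise was 1.25 to the bell stage (standard error 0.083, adjusted p = 3.16e-12) and 1.74 in culture (standard error 0.08, adjusted p = 6.73e-16). From Bell-L to Cap-L+2D the difference was 0.49 (adjusted p = 1.8e-06), just under the limit on the fold. Fgf7 was called there with DESeq2, with RLE scaling, without the filter on low counts and without library 3 of Cap-L+2D (0.53) or library 2 of Bell-L (0.54) or its library 3 (0.51). On the buccal side it was 8.62, 9.37 and 9.77 in Cap-B, 10.8, 10.8 and 11 in Bell-B and 21.2, 21.4 and 19.7 in Cap-B+2D. Here only the culture difference was called (log2 fold change 1.14, standard error 0.069, adjusted p = 6.35e-16), while that to the bell stage was 0.22. The side difference was 0.46 at the cap stage, under the limit though all buccal libraries were higher, and called only without library 1 of Cap-B (0.51). It was -0.58 at the bell stage, called with the lingual part higher (adjusted p = 1.12e-08), and -0.14 in culture. The interactions were -1.05, standard error 0.12, adjusted p = 2.28e-08 with stage, and -0.61, standard error 0.11, adjusted p = 2.89e-05 with culture. In the undivided mesenchyme it went from 3.5, 3.62 and 4.07 to 8.46, 9.33 and 6.3 (log2 fold change 1.09, standard error 0.22, adjusted p = 0.0144), without overlap. This call was lost in 3 of the 6 leave-1-out fits, those without library 2 or 3 of Cap-W or library 2 of Bell-W, with adjusted p up to 0.0723.

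Fgf20, a ligand of the enamel knot, was highest in Cap-L, with 3.72, 4.03 and 3.39 normalized CPM against 0.451, 0.669 and 0.311 in Cap-B (log2 fold change -2.94, standard error 0.22, adjusted p = 2.82e-09). The groups did not overlap. The summed epithelial markers were 516 to 569 in Cap-L and 381 to 401 in Cap-B, and 9 of 11 of those tested were called, all lower in Cap-B, with a median log2 fold change of -0.76. At the bell stage Fgf20 was 0.19, 0.583 and 0.531 in Bell-L and 0.197, 0.32 and 0.232 in Bell-B, ranges that overlapped, on 5, 16 and 16 and 6, 9 and 7 counts, and the filter left this pair untested. It was not called without the filter (adjusted p = 0.184), with DESeq2 (adjusted p = 0.426), with all 24 libraries together (adjusted p = 0.248) or without any 1 library of Bell-B (adjusted p = 0.0995 to 0.304). It was called lower in Bell-B only without library 1 of Bell-L, the lowest of its group (-1.15, adjusted p = 0.0276). The interaction with stage was 2.11, standard error 0.53, adjusted p = 0.00229. From Cap-L to Bell-L it fell by 3.06 on the log2 scale (adjusted p = 3.39e-11). Culture left 3, 2 and 2 counts in Cap-L+2D, and over the pooled counts Cap-L was 47.6-fold higher (95% interval of counting error 22.8 to 119, Clopper-Pearson, adjusted p = 9.64e-14). Against Bell-L the ratio was 5.61 (2.47 to 14.9, adjusted p = 0.000276). Cap-B+2D had 0 counts in all 3 libraries, which makes the level in Cap-B at least 5.08-fold higher against a mean floor of 0.0939 CPM per library. The filter left this pair untested too, and it was called without the filter (adjusted p = 2.38e-11), with DESeq2 (adjusted p = 4.21e-06) and with all 24 libraries fitted together (adjusted p = 2.13e-06). Against Bell-B, also untested with the filter, Fgf20 was called lower in Cap-B+2D by the same 3 alternatives (adjusted p = 7.02e-07, 0.00014 and 5.16e-05). The epithelial markers summed to 432 to 465 in Cap-L+2D and 94.5 to 94.9 in Cap-B+2D. Undivided, Fgf20 was 1.45, 1.61 and 2.37 in Cap-W and 1.35, 0.795 and 0.936 in Bell-W, lower in all 3 of the latter but not called (log2 fold change -0.83, standard error 0.36, adjusted p = 0.173).

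Fgf9, the other enamel knot ligand, which is also made in mesenchymal and muscle tissues, took the opposite course. It was 0.644, 0.723 and 0.671 normalized CPM in Cap-L and 2.66, 2.05 and 2.69 in Cap-B (log2 fold change 1.87, standard error 0.20, adjusted p = 4.64e-07), 3.5, 3.17 and 3.22 in Bell-L and 5.61, 5.98 and 5.59 in Bell-B (log2 fold change 0.80, standard error 0.11, adjusted p = 1.78e-07). In culture it was 2.3, 1.86 and 2.13 in Cap-L+2D and 10.4, 11.1 and 10.1 in Cap-B+2D (log2 fold change 2.33, standard error 0.11, adjusted p = 1.52e-15). All buccal libraries were thus higher each time. The difference was smaller at the bell stage (interaction -1.08, standard error 0.22, adjusted p = 0.000376), while the interaction with culture was not called (0.45, adjusted p = 0.152). The rise over time was 2.27 in Bell-L and 1.61 in Cap-L+2D, both against Cap-L, and 1.20 in Bell-B and 2.08 in Cap-B+2D, both against Cap-B, with adjusted p of at most 5.72e-08. Fgf9 was highest in Cap-B+2D, where the epithelial markers were lowest (94.7) and the muscle markers highest (4005). Between parts, all 9 muscle markers were called higher on the buccal side at the cap stage, at the bell stage and in culture, with median log2 fold changes of 4.17, 2.66 and 3.65, and their part in the result was not tested. In a fit of all 24 libraries, where the spread of Bell-W enters, the call at the bell stage (adjusted p = 0.118), the interaction with stage (adjusted p = 0.231) and the difference between Cap-L+2D and Bell-L (adjusted p = 0.133) were lost.

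In the undivided mesenchyme 1 library decided the value of Fgf9. It was 2.45, 1.91 and 3.53 normalized CPM in Cap-W and 1.19, 1.34 and 5.26 in Bell-W (log2 fold change -0.02, standard error 0.60, adjusted p = 0.988). The third value of Bell-W comes from the library with the epithelial sum of 2231. Without it the log2 fold change was -1.07 (adjusted p = 0.113).

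Fgf8, the early oral epithelial ligand, was measurable in the undivided cap stage mesenchyme and close to the floor elsewhere. Its counts were 39, 36 and 48 in Cap-W (2.17, 1.18 and 2.15 normalized CPM) and 0, 1 and 4 in Bell-W. All 3 libraries of Cap-W lay above those of the other 7 groups, whose highest value was 0.418 in Cap-B. Cap-W was 28.1-fold higher than Bell-W over the pooled counts (95% interval of counting error 11.7 to 88.2, Clopper-Pearson, adjusted p = 0.00418), a call kept with each library left out. The fitted log2 fold change of Bell-W over Cap-W was -4.81, and -6.19 without library 3 of Bell-W, which held 4 of its 5 counts. The parts held 2, 7 and 7 counts in Cap-L, 4, 10 and 6 in Cap-B, 2, 2 and 2 in Bell-L and 0, 0 and 3 in Bell-B. In culture the counts were 2, 3 and 1 in Cap-L+2D and 5, 0 and 2 in Cap-B+2D, where the filter on low counts left Fgf8 untested. Fitted without that filter, the counts of Bell-B and Cap-B+2D were called lower than those of Cap-B (adjusted p = 0.00181 and 0.0164), and no other of its differences among the parts was called. With DESeq2 the first was called (adjusted p = 0.0313) and the second was not (adjusted p = 0.0912). The ranges of the summed epithelial markers overlapped between Cap-W (376 to 566) and Cap-L (516 to 569), but single markers went both ways. Shh (0.945 to 1.7 against 0.179 to 0.282), Trp63 (49.3 to 78 against 41.7 to 44.8), Cldn4 and Krt8 were higher in all libraries of Cap-W. Krt5 (68.5 to 115 against 151 to 167) and Krt15 (12.4 to 19.8 against 53.3 to 57.5) were lower there. The other markers overlapped, and the part of epithelium in the Fgf8 values was not tested.

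Fgf18, a ligand of skeletal and facial mesenchyme that acts on cartilage and bone precursors, was the most strongly buccal of the abundant members. It was 12.7, 13.6 and 13.8 normalized CPM in Cap-L and 38.1, 39.5 and 37.2 in Cap-B (log2 fold change 1.54, standard error 0.06, adjusted p = 2.75e-13). At the bell stage it was 18, 19.8 and 18.3 in Bell-L and 25.2, 26.5 and 27.3 in Bell-B (log2 fold change 0.50, standard error 0.058, adjusted p = 1.79e-09), and in culture 18, 18.3 and 18.4 in Cap-L+2D and 34.7, 33.9 and 33.6 in Cap-B+2D (log2 fold change 0.89, standard error 0.054, adjusted p = 2.28e-13). The ranges of the parts never overlapped. The bell stage value was just under the limit on the fold and was called with RLE scaling and without library 2 of Bell-L (0.54) or library 1 of Bell-B (0.53). The difference narrowed with stage (interaction -1.05, standard error 0.083, adjusted p = 2.08e-11) and with culture (-0.65, standard error 0.08, adjusted p = 9.93e-08). From Cap-B to Bell-B the level fell by 0.55 on the log2 scale (adjusted p = 4.2e-11). On the lingual side the differences of 0.49 to Bell-L and 0.46 to Cap-L+2D stayed under the limit, the first being called in 4 of 6 such leave-1-out fits. Undivided, the values were 8.12, 9.91 and 8.5 in Cap-W and 10.4, 6.65 and 8.36 in Bell-W, which overlapped (-0.08, adjusted p = 0.848). These were the lowest of all groups, while Cap-B, Cap-B+2D and Bell-B, in this order and without overlap, were the highest.

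Fgf1 and Fgf2 lack a classical secretion signal and are released by other routes. Fgf1 (ENSMUSG00000036585) lies on chromosome 18 of the same build, from base 38971726 to 39062525. It was 3.08, 3.42 and 2.37 normalized CPM in Cap-L and 1.31, 1.26 and 1.01 in Cap-B (log2 fold change -1.30, standard error 0.19, adjusted p = 1.89e-05). This lingual excess at the cap stage was not called in the later pairs, with 2.05, 1.71 and 2.26 in Bell-L and 2.26, 1.74 and 2.42 in Bell-B, and 0.985, 1.09 and 1.33 in Cap-L+2D and 1.29, 1.46 and 1.42 in Cap-B+2D, whose log2 fold changes were 0.09 and 0.26. The interactions were 1.39, standard error 0.26, adjusted p = 0.000103 with stage, and 1.56, standard error 0.28, adjusted p = 3.99e-05 with culture. Within the lingual side Fgf1 fell by 1.36 in culture (adjusted p = 4.49e-07) and by 0.56 to the bell stage (adjusted p = 0.00695), the latter not called without library 2 of Cap-L (-0.43) or library 2 of Bell-L (-0.45). Within the buccal side it rose by 0.85 to the bell stage (adjusted p = 0.000394). Undivided, it was 2.61, 2.99 and 3.94 in Cap-W and 2.73, 3.47 and 4.1 in Bell-W, with overlap.

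Fgf2, the basic FGF of many mesenchymal cells, was 28.8, 28.3 and 30.2 normalized CPM in Cap-L and 41.5, 42.9 and 39.8 in Cap-B (log2 fold change 0.53, standard error 0.054, adjusted p = 2.38e-07). It was 57.9, 57.6 and 58.3 in Bell-L and 52.9, 55.1 and 51 in Bell-B, where the lingual libraries were higher by less than the limit (-0.13, adjusted p = 0.0093), and the interaction with stage was -0.67, standard error 0.067, adjusted p = 2.87e-09. In culture it was 42.2, 45.2 and 40.7 in Cap-L+2D and 59, 55.8 and 56.2 in Cap-B+2D (0.41, adjusted p = 6.06e-08), again under the limit with all buccal libraries higher. On the lingual side Fgf2 rose by 1.00 to the bell stage and by 0.56 in culture (adjusted p = 2.12e-14 and 9.72e-10). On the buccal side the differences of 0.35 and 0.44 were under the limit on the fold (adjusted p = 8.91e-08 and 1.61e-10). Undivided, it was 28.1, 27 and 25 in Cap-W and 43.7, 44.9 and 28.7 in Bell-W (log2 fold change 0.54, standard error 0.18, adjusted p = 0.0828). The third library of Bell-W was the low one, and without it the difference was called (0.71, adjusted p = 0.00596).

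Fgf13, the intracellular factor, was highest in Cap-W with 54.7, 32.7 and 41.1 normalized CPM, against 23.6, 24.6 and 19 in Bell-W (log2 fold change -0.95, standard error 0.19, adjusted p = 0.015). It was 26, 25.7 and 26.1 in Cap-L and 20.6, 20.0 and 20.1 in Cap-B, and 17.7, 16.8 and 16 in Bell-L and 20.0, 19.8 and 18.6 in Bell-B. The side difference was under the limit at -0.33 and 0.21, with all libraries of Cap-L above Cap-B and all of Bell-B above Bell-L, and the interaction with stage was 0.54, standard error 0.082, adjusted p = 5.81e-06. After culture it was 16.3, 17.7 and 17.3 in Cap-L+2D and 14.9, 14.9 and 14.4 in Cap-B+2D. On the lingual side it fell by 0.61 to the bell stage and by 0.59 in culture (adjusted p = 7.32e-09 and 5.45e-09). On the buccal side neither difference was called, at -0.06 to the bell stage and -0.48 in culture. The latter was under the limit on the fold (adjusted p = 1.93e-08), with all libraries of Cap-B+2D below those of Cap-B.

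**Figure D5:**
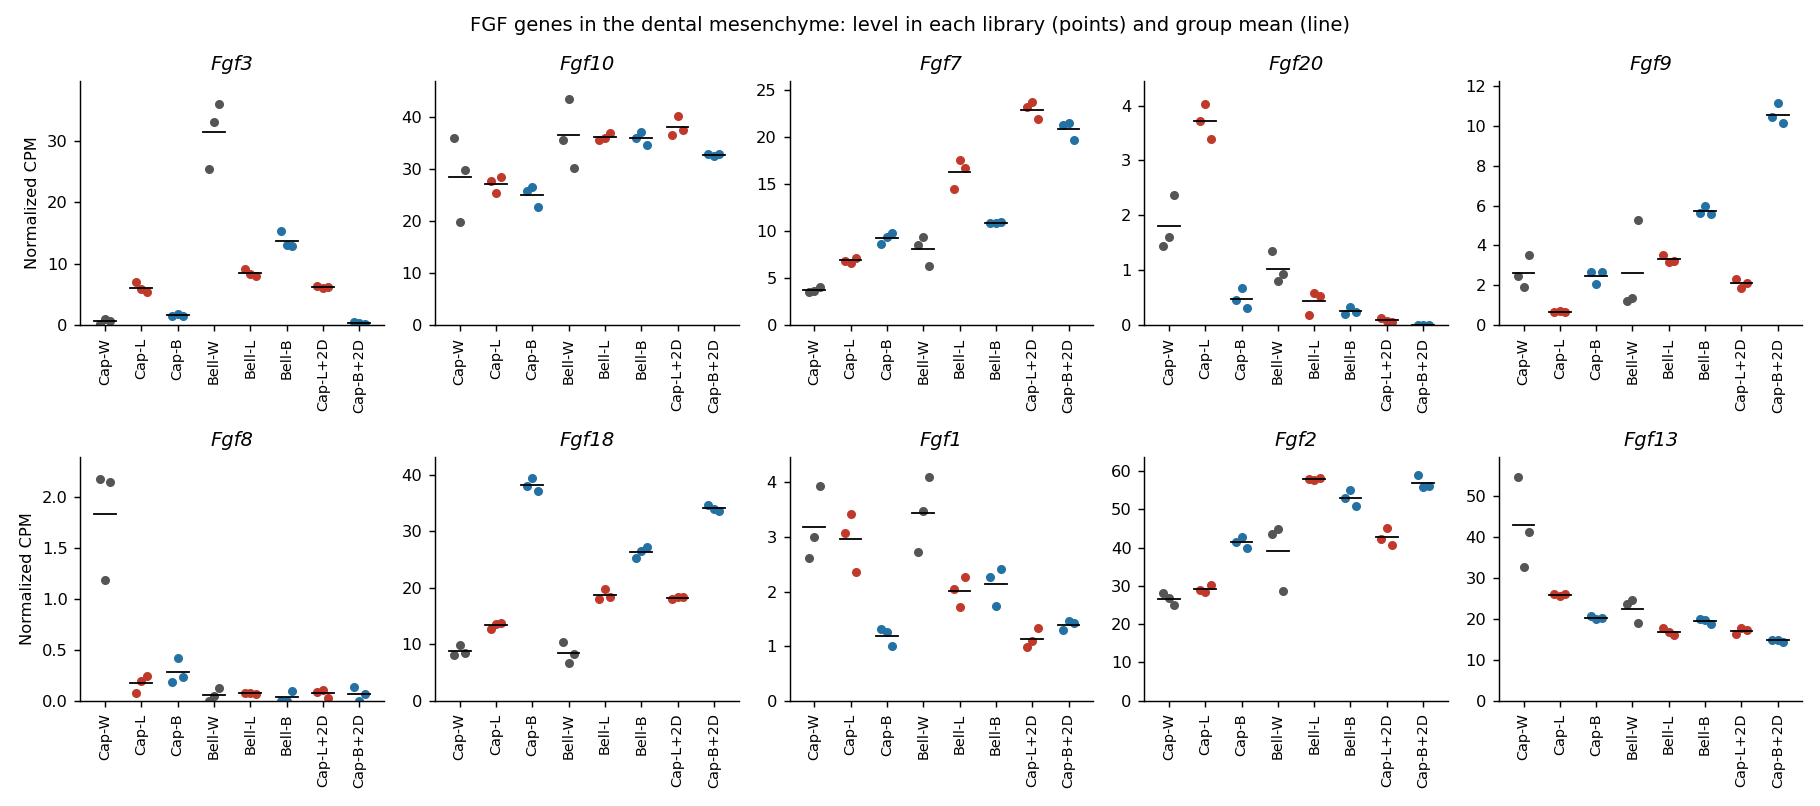
Normalized CPM (linear axis from 0, own scale per gene) of each member in the 8 groups. Points are libraries, in grey for undivided, red for lingual and blue for buccal mesenchyme, and black lines are group means. Fgf3 averages 31.5 in Bell-W, Fgf18 38.3 in Cap-B, Fgf20 3.71 in Cap-L and Fgf9 10.6 in Cap-B+2D.

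The other genes of the pathway were counted in 3 lists. Among 12 other FGF genes, those tested and called were 1 of 6 higher and 2 lower in the buccal part at the cap stage, 2 of 9 higher and 2 lower at the bell stage and 6 of 10 higher and 3 lower in culture. In these pairs 17.5%, 12.9% and 25.1% of all genes tested were called, both directions together. The genes named from this list were mostly FGF homologous factors like Fgf13. Fgf14 was lower in the buccal part each time (-1.91, -1.72 and -1.33), and Fgf12 at the cap stage (-1.31) and in culture (-0.65). In culture the endocrine factor Fgf21 (1.27) and Fgf11 (0.84) were higher in the buccal part. Over the list the median log2 fold change was 0.00 against -0.01 over all genes at the cap stage and 1.05 against 0.00 in culture.

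Of 11 receptors and co-factors, 1 of 10 higher and 3 lower were called at the cap stage, 1 of 9 higher and 2 lower at the bell stage and 1 of 11 higher and 4 lower in culture, with medians of -0.23 against -0.01, 0.08 against 0.00 and -0.22 against 0.00 over all genes. The background of calls in either direction was 17.5%, 12.9% and 25.1%. The receptor Fgfr4, which is also known from muscle precursors, was higher in the buccal part each time (1.55, 2.63 and 3.33), as were all 9 muscle markers, whose part in this was not tested. The side difference of Fgfr4 changed with stage (1.08) and with culture (1.78). Fgfr2, the receptor of Fgf3, Fgf7 and Fgf10 in its epithelial form, was lower in the buccal part at the cap stage (-0.84) and in culture (-0.98), and rose in the undivided mesenchyme with stage (1.39). Gene counts do not separate its isoforms. Over time, 2 of 10 higher and 1 lower were called in Bell-L and 5 of 10 higher and 0 lower in Cap-L+2D, both against Cap-L, and 2 of 11 higher and 0 lower in Bell-B and 4 of 11 higher and 1 lower in Cap-B+2D, both against Cap-B. The background here was 20%, 35.4%, 18.7% and 34.5%, in the same order.

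Of 13 feedback and response genes, 3 of 13 higher and 2 lower were called in the buccal part at the cap stage, 3 of 13 higher and 0 lower at the bell stage and 4 of 13 higher and 0 lower in culture, with medians of -0.07 against -0.01, 0.21 against 0.00 and 0.17 against 0.00 over all genes. The background of calls in either direction was again 17.5%, 12.9% and 25.1%. The ETS factor Etv1 was higher in the buccal part each time (1.49, 0.88 and 1.76). The inhibitor Spry4 (-1.01) and the ETS factor Etv4 (-0.87) were lower there at the cap stage, as Fgf3 and Fgf20 were. Their side differences changed with stage by 1.33 and 1.10. Within the buccal side both rose from Cap-B to Bell-B (0.80 and 1.17). Between the cultured parts neither was called (-0.42 for Spry4 and -0.11 for Etv4), whereas Fgf3 was lower in Cap-B+2D (-4.17). The side difference of Etv4 changed with culture by 0.76, and that of Fgf3 by -2.26. In culture the inhibitors Spry1 and Spry2 rose in Cap-L+2D (1.36 and 0.95) and in Cap-B+2D (1.43 and 1.79), and the cyclin gene Ccnd1 fell (-0.60 and -0.80). The side interaction with stage was called in 9 of 13 (background 32.5%) and that with culture in 8 of 13 (background 35.5%).

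The genes whose pattern over the 24 libraries was most like that of a member were searched among up to 14376 genes with an average log2 CPM of at least 2, by Pearson's r of log2 CPM, as a description over libraries that share groups and depth. Fgf3 was most like Tcf7 (r = 0.96), Pon2 (r = 0.94) and Neurl1b (r = 0.94). Tcf7 encodes a TCF/LEF factor of the Wnt pathway. Fgf18 was most like Wnt16 (r = 0.97), Fibin (r = 0.96) and Cdon (r = 0.95), and Fgf7 most like Wipi1 (r = 0.99), Fndc3b (r = 0.98) and Sgcb (r = 0.97). For Fgf9 the genes were Sel1l3 (r = 0.90), Frmpd1 (r = 0.90) and Myh7 (r = 0.88), the last a muscle myosin heavy chain. Fgf20 was most like Snx5 (r = 0.94), Pcca (r = 0.93) and Paip2b (r = 0.93), and Fgf13 most like Rps6ka6 (r = 0.96), Mcm4 (r = 0.96) and Wdr82 (r = 0.95). Fgf2 was most like Cav1 (r = 0.92), Fstl1 (r = 0.92) and Gas7 (r = 0.92), Fgf10 most like Krcc1 (r = 0.90), Nectin3 (r = 0.87) and Galnt4 (r = 0.85) and Fgf1 most like Shmt1 (r = 0.91), Dck (r = 0.90) and Itpa-ps1 (r = 0.89). The values of Fgf8 were too low for this search. Among the members themselves, the strongest positive value was that of Fgf7 with Fgf2 (r = 0.80) and the strongest negative ones were those of Fgf7 with Fgf13 (r = -0.89) and Fgf20 (r = -0.83), over the same 24 libraries.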

How the data were processed

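RNA-seq was measured in 24 libraries of mouse dental mesenchyme, 3 in each of 8 groups taken from the sample titles. The authors deposited 1 table of unnormalized counts per gene, which its header says was made with featureCounts 2.0.0 in paired mode, without strand, on Ensembl release 107 of GRCm39. The submitters' processing notes name FastQC 0.12.1, Trimmomatic 0.39, Bowtie 1.2.3, Subread 2.0.3 and DESeq2 1.40.2, the study's methods name another aligner, and which of these made the deposited counts could not be settled. The labels and the methods also name different library kits. Symbols were taken from Ensembl release 116 (56017 of 56748 identifiers named).

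Counts were tested with edgeR 4.0.16 (R 4.3.3, TMM scaling, filterByExpr, quasi-likelihood test, Benjamini-Hochberg adjustment over all genes tested). Each pair of parts and the undivided stages were fitted on 6 libraries, the time courses of a side on 9 and the interactions on 12. On simulated counts of Cap-B against Cap-L (20371 genes) 100 of 100 genes changed by log2 1 were recovered, and 50 of 100 for Bell-W against Cap-W (20540 genes). Alternatives were RLE scaling, DESeq2 1.42.0, no filter on low counts, a stricter one of 10 counts per library, 1 fit of all 24 libraries, a replicate block, leaving out the 100 most abundant genes, no fold limit and leaving out each library. Totals ranged from 20581720 to 39266497 counts, and a count of 3 served as floor. The members and the pathway and marker lists were chosen with earlier results of these data known. All members are named in every comparison, and of each pathway list at most 2 called genes per direction, those with the largest fold at an average log2 CPM of at least 1. Values of Spry4 and Etv4 between the cultured parts, where neither was called, are also given. Promoter windows were read from the GRCm39 sequence before GENCODE canonical starts, and 7 of the 10 members (all but Fgf1, Fgf8 and Fgf20) had an entry in the RefSeq promoter table.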

Additional observations from a re-analysis of the deposited data

Results flagged for a closer look

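The difference between the buccal and the lingual part was itself different between the stages in 8 members, by the interaction test of the quasi-likelihood fit. The log2 fold change of the bell stage minus that of the cap stage was 2.60 for Fgf3, 2.11 for Fgf20, 1.39 for Fgf1 and 0.54 for Fgf13, which moved toward the buccal side. It was -1.08 for Fgf9, -1.05 for Fgf18, -1.05 for Fgf7 and -0.67 for Fgf2, which moved toward the lingual side. Of all genes tested, 32.5% changed in this way.

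Between fresh and cultured parts of the cap stage, the side difference changed in 4 members. The difference after culture minus that before was 1.56 for Fgf1, -2.26 for Fgf3, -0.65 for Fgf18 and -0.61 for Fgf7, against a background of 35.5%. Both sets of values share the Cap-L and Cap-B libraries, and markers of epithelium and muscle also differed between the parts, whose part in these values was not tested.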

How the results depend on the processing

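Of 104 member values that were tested, 55 were called, and none of the called values turned under any alternative. Outside the fits that left out 1 library, 781 of 829 values kept their direction and their side of the threshold, 3 fell below it and 42 passed it anew, most of the latter in the setting with no fold limit. With 1 library left out, 692 of 732 kept both, 7 fell below and 18 passed. Without a limit on the fold, the members called numbered 6 in Bell-B against Bell-L (37% of all genes tested), 7 in Cap-B+2D against Cap-L+2D (54.6%), 6 in Cap-L+2D against Bell-L (61.3%), 7 in Cap-B+2D against Cap-B (67.2%) and 8 in Cap-B+2D against Bell-B (65.7%). Without the filter on low counts, and also with all 24 libraries in 1 fit, 5 were called in Cap-B+2D against Cap-B (background 21.5% and 29.9%). From Cap-W to Bell-W, 2 were called with at least 10 counts in every library (background 13.9%), a filter that removed Fgf3 and Fgf8 before testing. Their lowest counts were 4 in Cap-W and 0 in Bell-W. Without library 1 of Cap-W and library 3 of Bell-W, the alternative added after seeing the data, 7 were called (background 20.9%). That alternative gave -0.158 for Fgf1. In that comparison Fgf9 was 0.0141 without the filter and 0.0293 in the fit of 24. The calls of Fgf9 that the fit of 24 lost stand with its values.

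With each library left out, values that had not been called changed sign. From Cap-W to Bell-W the ranges were -1.07 to 0.362 for Fgf9, -0.219 to 0.0743 for Fgf18 and -0.0588 to 0.28 for Fgf1. In Bell-B against Bell-L they were -0.0348 to 0.016 for Fgf10 and -0.00853 to 0.215 for Fgf1. Fgf3 ranged from -0.0609 to 0.119 in Cap-L+2D against Cap-L. In Cap-L+2D against Bell-L, Fgf13 ranged from -0.0135 to 0.0569 and Fgf18 from -0.064 to 0.00615, and the members called there numbered 3 to 5, the 5 being without library 3 of Bell-L. The cause was not tested.

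No sign of pairing by replicate number was seen between libraries. If the libraries of a group are technical, shared embryos would leave no such sign, and the check cannot decide. Deviations of libraries of the same number correlated between -0.0466 and 0.0862 over 23402 genes, and with a replicate block the members called numbered 6 in Cap-B against Cap-L, 3 in Bell-B against Bell-L and 4 in Bell-W against Cap-W, as without it. The block changed the number in none of the 12 comparisons. RLE scaling moved group levels by at most 1.70% and plain library totals by at most 7.38%. Low counts limit Fgf8 and Fgf20, and the spread of the undivided libraries limits what Bell-W against Cap-W can show.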

Other observations

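The undivided libraries did not lie between the parts they were divided into for several members, a pattern chosen after its values were seen. At the cap stage, all 3 libraries of Cap-W lay outside the range of the 6 libraries of Cap-L and Cap-B in 6 of 10 members, against 26.2% of all 26084 genes compared. Fgf18 was 8.12 to 9.91 normalized CPM in Cap-W and 12.7 to 39.5 in the parts, and Fgf3 was 0.222 to 0.954 against 1.48 to 6.97. Fgf2 (25 to 28.1 against 28.3 to 42.9) and Fgf7 (3.5 to 4.07 against 6.62 to 9.77) were also below the parts. Fgf13 (32.7 to 54.7 against 20.0 to 26.1) and Fgf8 (1.18 to 2.17 against 0.0715 to 0.418) were above them.

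At the bell stage the same held for 6 of 10 members, against 17.7% of all genes. Fgf3 was 25.4 to 36 normalized CPM in Bell-W and 8.04 to 15.4 in the parts, and Fgf20 (0.795 to 1.35 against 0.19 to 0.583) and Fgf1 (2.73 to 4.1 against 1.71 to 2.42) were above the parts as well. Fgf18 (6.65 to 10.4 against 18 to 27.3), Fgf7 (6.3 to 9.33 against 10.8 to 17.5) and Fgf2 (28.7 to 44.9 against 51 to 58.3) were below them. Some undivided libraries also differed from the divided ones in the spread between libraries and in the share of Rn18s-rs5. Muscle markers summed to 16.0 in Cap-W (21.3 and 239.8 in its parts) and to 11.6 in Bell-W (121 and 944). Endothelial markers (187 against 442 and 401) and bone markers (350 against 972 and 454) were lower in Cap-W than in Cap-L and Cap-B. The sum of the dental mesenchyme markers was higher there (3897 against 3278 and 3416), with 3472 to 4498 in single libraries of Cap-W. Single markers went both ways. Pdgfra lay above both parts (409 to 470 against 285 to 375) and Twist1 below them (106 to 158 against 177 to 209). The other markers did not lie outside the range of the parts in all libraries. The part of these differences in the FGF values was not tested.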
